A study of Rattus norvegicus with 30 samples.

Results

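The genes described here are the rat translation initiation factors: every gene of the expression table whose symbol begins with Eif followed by a number from 1 to 6, with the eIF2 kinases (Eif2ak) and the eIF4E-binding proteins (Eif4ebp) included and pseudogene symbols left out. The rule found 52 of 17353 genes. Of these, 51 had a mean of at least 1 FPKM over the 30 libraries and were tested, and the remaining gene, Eif2s3y, was listed at 0 in every library. RNA sequencing was done on REF cells, a line of untransformed rat embryonic fibroblasts, in 10 groups of 3 biological replicates. The control cells were not starved, and the other 9 groups were serum-starved for 2, 3, 4, 6, 8, 10, 12, 14 or 16 days. No other agent or genetic change is named for any group, and all groups come from 1 line. The series concerns how deeply fibroblasts withdraw into quiescence, the reversible non-dividing state, as starvation is prolonged. Expression is given in FPKM, a fragment count divided by transcript length and by how many fragments of that library were mapped, so that levels of different genes are compared per transcript length.

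Translation initiation brings the small ribosomal subunit, carrying the initiator tRNA, to the start codon of a messenger RNA. eIF2 delivers the initiator tRNA and is recharged by eIF2B. eIF1, eIF1A and eIF5 guide scanning and start codon recognition, eIF3 is the scaffold on the small subunit, and eIF4E, eIF4G and the helicase eIF4A recognise the cap and open the leader of the messenger. The pathway is held back in stressed or starved cells in 2 known ways: kinases phosphorylate the alpha subunit of eIF2, and unphosphorylated 4E-binding proteins occupy eIF4E when mTORC1 signaling is low. Both act on proteins, which these RNA measurements do not show.

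The FPKM values of a library summed to between 582501 and 785072, and 9875 to 10580 genes were above 0. Replicates of a group correlated at 0.9814 to 0.9913 across genes. The replicate 1 libraries of all 10 groups stood apart from the others on the first component of the deviations from the group means, with scores of -17.77 to -5.791 against at least 0.76, so calls were also made with replicates 2 and 3 only. Of 11 fibroblast markers, 7 had a mean of at least 1 FPKM, Col1a2 was listed at 0 throughout and Thy1 was at or near 0. Pdgfra and Dcn were also below that mean. The summed FPKM of the 11 was 15710 to 18050 in control, 25980 to 31110 at day 2 and 12920 to 14170 at day 16. Markers of other cell types differed in level between groups. The summed FPKM of the 5 skeletal muscle markers was 312.1 to 335.1 in control and 12.05 to 14.82 at day 2 (2 of 5 at a mean of at least 1 FPKM, with Myog, Myh3 and Ckm at or near 0). The sum of 5 epithelial markers was 10.92 to 12.89 in control and 62.18 to 75.81 at day 16 (Krt8 alone above the minimum), and that of 5 neural and glial markers was 7.832 to 10.32 and 18.02 to 22.52 (3 of 5 above it, Sox10 at 0). The sum of 6 macrophage markers was 7.106 to 7.4 in control and 1.788 to 2.162 at day 2, and that of 5 endothelial markers was under 0.77 FPKM in these groups, with Adgre1, Cdh5 and Kdr at 0. The part of these shifts in the results below was not tested.

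After 2 days of serum starvation more initiation factor genes were lower than higher, relative to unstarved control cells. Between control and day 2, 27 of the 51 genes tested fell, 9 rose and 15 did not pass the threshold, an adjusted p under 0.05 in limma. That is 52.9% lower and 17.6% higher, beside 30.7% lower and 30% higher over all 8940 genes tested (60.7% in all). The median log2 change of the initiation factors was -0.23, a 0.852-fold level, beside 4.36e-05 for all genes. Upper quartile scaling gave 22 lower and 9 higher with a median of -0.13, beside 0.0924 for all genes. Quantile normalization gave 22 lower and 11 higher with a median of -0.131, beside 0.0475. The summed FPKM of the initiation factors made up 1.05% ± 0.0233 (SD, n = 3) of the control libraries and 0.804% ± 0.0374 of the day 2 libraries, and every starved library lay between 0.709% and 0.860%. In bulk RNA a smaller number of expressing cells and less RNA per cell cannot be told apart, and FPKM values do not show a change in the total RNA of a cell. The deepest falls were those of the helicase gene Eif4a1, the cap-binding gene Eif4e and the eIF2 alpha gene Eif2s1. Eif4a2, Eif3f and the kinase gene Eif2ak4 rose most.

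**Figure D1:**
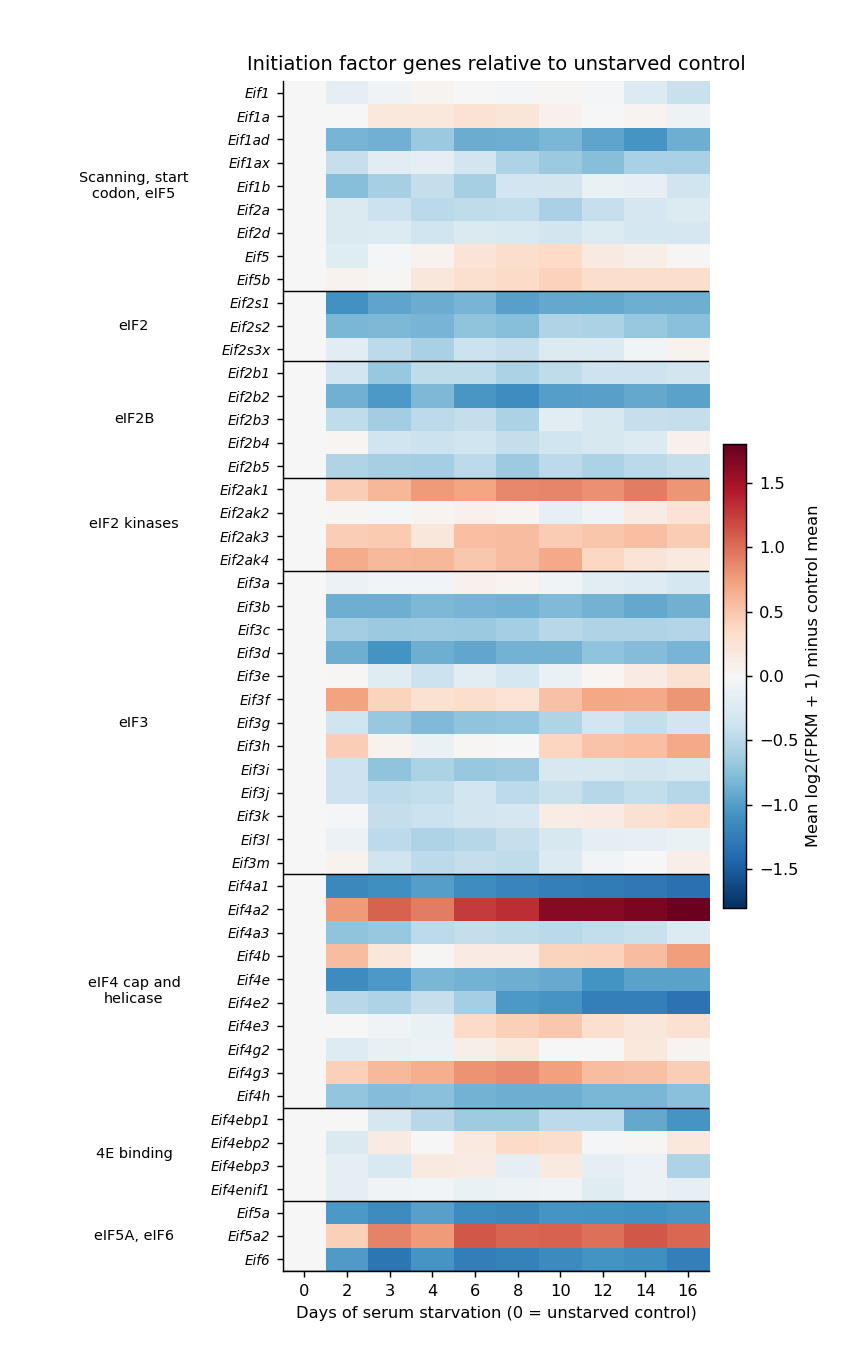
Mean log2(FPKM + 1) of each of the 51 initiation factor genes in each group minus its control mean, with genes in rows by role and days of serum starvation in columns (0 is unstarved control). Blue is lower and red is higher than control; the columns from day 2 on are mostly blue, with Eif4a2 and Eif5a2 among the red rows.

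From day 2 to day 8 and from day 8 to day 16 fewer initiation factor genes passed in all than at day 2, as for all genes tested. From day 2 to day 8, 11 genes rose and 11 fell, beside 17.4% and 18.4% of all genes tested (35.8% in all), and the median log2 change was -0.03 beside 0.01 for all genes. From day 8 to day 16, 12 rose and 6 fell, beside 15.8% and 14.4% of all genes (30.2% in all), and both medians were 0.00. With each library rescaled to the same FPKM sum the splits became 14 higher and 9 lower at day 8, and 7 higher and 12 lower at day 16. That rescaling moved the median of all genes by 0.0964 and by -0.162. With starvation day as a number over the 27 starved libraries, 19 genes rose and 7 fell, beside 26.6% and 28.9% of all genes (55.5% in all). The median fitted change over the 14 days from day 2 to day 16 was 0.14 log2 units, beside -0.02 for all genes. A fitted change is the slope of a straight line and not the difference between the day 2 and day 16 libraries. Rescaling to the same sum gave 9 higher and 11 lower and moved the median of all genes by -0.123, so changes with day are changes relative to the other genes. At day 16 against control, 28 were lower and 10 higher, beside 35% and 32.4% of all genes (67.5% in all), with a median of -0.29 beside -0.02. Upper quartile scaling gave 23 lower and 14 higher and moved the median of all genes by 0.105. Quantile normalization gave 22 lower and 13 higher. Several of these comparisons share the day 2, day 8, day 16 or control libraries, so they are not independent of each other.

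**Figure D2:**
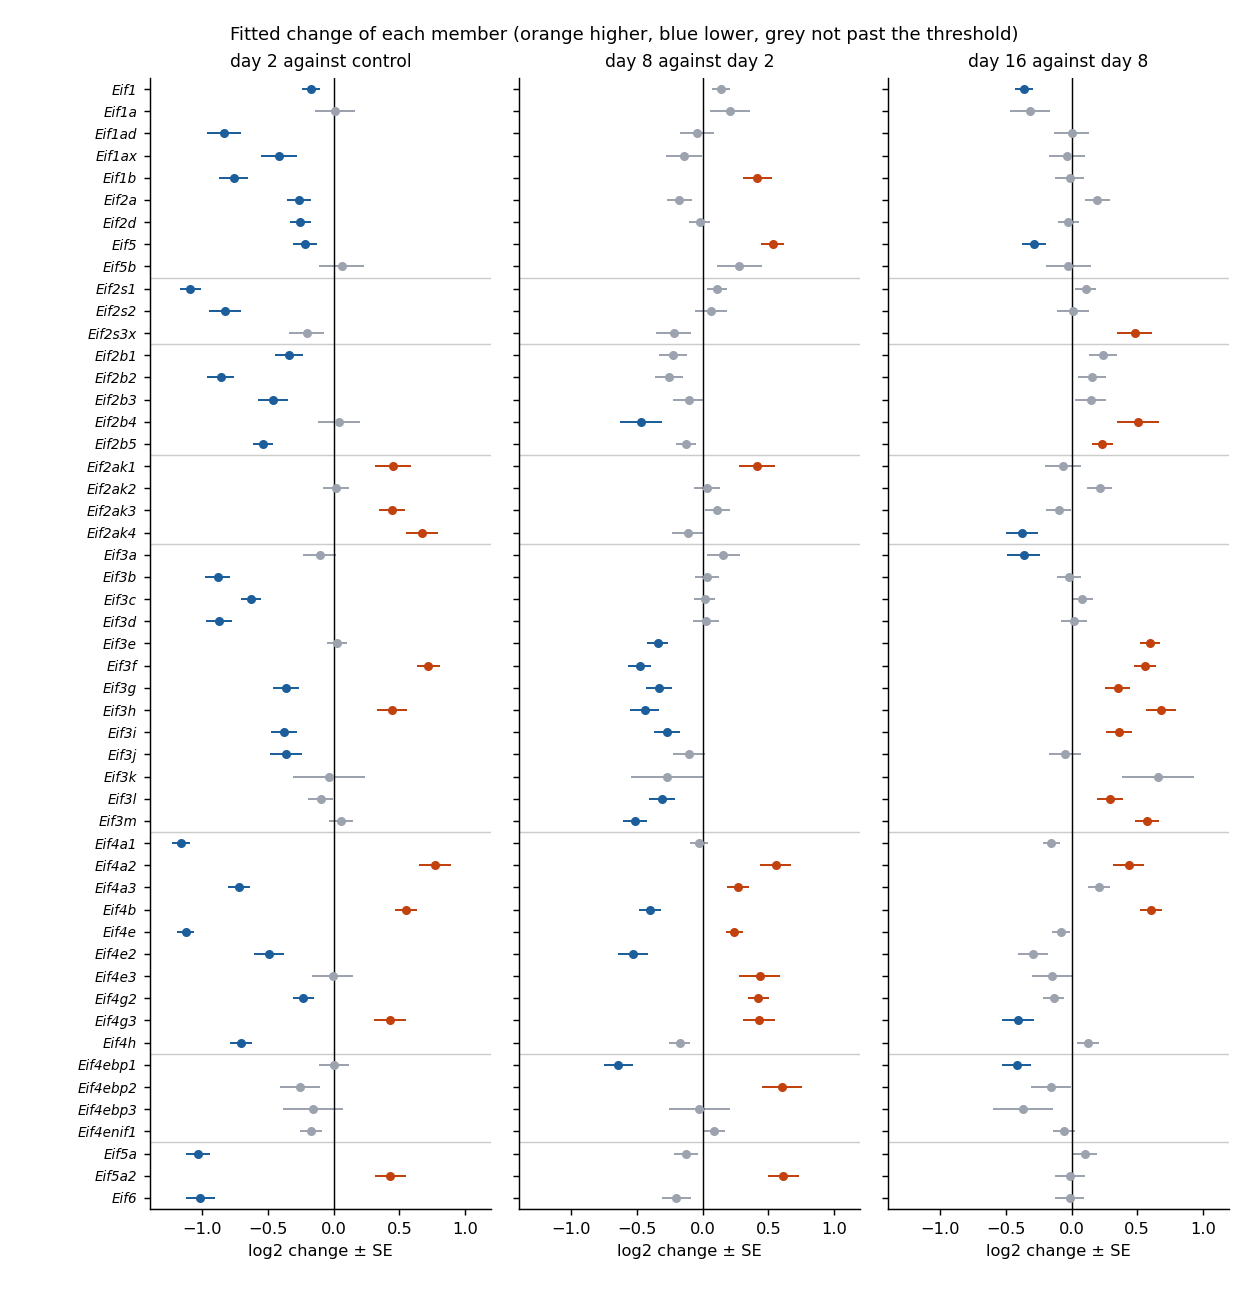
Fitted log2 change ± SE of each initiation factor gene for day 2 against control, day 8 against day 2 and day 16 against day 8 (3 libraries a group); orange points passed the threshold as higher, blue as lower, and grey did not pass. The left panel holds 27 blue and 9 orange points; in the middle panel 7 eIF3 genes are blue, and in the right panel 7 eIF3 genes are orange.

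Among the 9 genes of start codon selection and scanning, 7 fell by day 2 and 0 rose, beside 30.7% lower and 30% higher over all genes, with a median log2 change of -0.25. The largest fall was that of Eif1ad, a relative of eIF1A, from 10.6 ± 0.142 to 5.52 ± 0.957 FPKM (SD, n = 3; log2 change -0.84, adjusted p = 5.06e-06 in limma). Eif1b, a paralog of Eif1, went from 72.8 ± 2.81 to 42.7 ± 3.87 FPKM (-0.76, 1.57e-06). Eif2a and Eif2d, which can deliver initiator tRNA without eIF2, changed by -0.26 and -0.25 (adjusted p = 0.0164 and 0.00666), calls lost under upper quartile scaling (0.117 and 0.101), and that of Eif2a also without day 2 replicate 1 (0.0672). Eif1a and Eif5b, which joins the ribosomal subunits, did not pass, with log2 changes of 0.01 and 0.06. Eif1a and Eif1ax are close copies, and how reads that fit several copies were counted is not given in the sources used here, so their values are uncertain.

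Eif1, which keeps the scanning ribosome open until the start codon is met, was 558, 499 and 534 FPKM in control, 486, 473 and 451 at day 2, 518, 503 and 531 at day 8 and 400.1, 409 and 395 at day 16. Its day 16 libraries were below those of the other 3 groups. The day 2 difference of -0.17 ± 0.07 (SE) passed narrowly (adjusted p = 0.0337) and was lost in 9 alternatives, with adjusted p from 0.0609 to 0.544. These included leaving out control replicate 1, control replicate 3, day 2 replicate 2 or day 2 replicate 3 (0.140, 0.0752, 0.0609 and 0.123). From day 8 to day 16 Eif1 fell by 0.37 ± 0.07 log2 units (adjusted p = 0.000225).

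Eif1ax was 76.8, 97.0 and 95.4 FPKM in control, 57.0, 74.0 and 70.5 at day 2, 62.6, 57.2 and 61.5 at day 8 and 51.4, 60.5 and 65.9 at day 16. All day 2, day 8 and day 16 libraries lay below all control libraries. The day 3 and day 4 libraries overlapped control, with means of 78.6 and 80.4 FPKM. The day 2 fall of 0.41 ± 0.14 log2 units (adjusted p = 0.0119) was lost without control replicate 2 (0.0552) or day 2 replicate 1 (0.0842), while the fitted fall with starvation day was 0.46 ± 0.11 over the 14 days (adjusted p = 0.00107). Eif5, the activator of GTP hydrolysis by eIF2, ran 92.3 ± 7.46, 79.0 ± 3.93, 115 ± 1.08 and 94.0 ± 7.53 FPKM at control and days 2, 8 and 16. The rise from day 2 to day 8 was 0.53 ± 0.09 log2 units (adjusted p = 3.62e-05). The fall to day 16 passed at 0.0178 and was lost without day 16 replicate 1 (0.108), and that to day 2 passed at 0.0373 and was lost under 7 alternatives.

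At the start of starvation most genes of eIF2 and eIF2B fell and most genes of the kinases that act on eIF2 rose. Of the 3 eIF2 genes tested 2 fell, of the 5 eIF2B genes 4 fell, and of the 4 kinase genes 3 rose, with median log2 changes of -0.83, -0.46 and 0.45. Over all genes 30.7% were lower and 30% higher. Eif2s1, the alpha subunit that the kinases phosphorylate, was 142, 141 and 146 FPKM in control and 68.1, 65.3 and 66.0 at day 2. It was 72.7, 70.7 and 71.8 at day 8 and 69.8, 86.9 and 76.1 at day 16. No starved library exceeded 86.9 FPKM, so control and starved libraries did not overlap at any time. The fall at day 2 was 2.13-fold (log2 change -1.09 ± 0.08, adjusted p = 4.87e-12). Eif2s2, the beta subunit, went from 249 ± 10.8 to 140.0 ± 3.77 FPKM (log2 change -0.83, adjusted p = 1.85e-06). The gamma subunit gene Eif2s3x did not pass at day 2 (-0.20, adjusted p = 0.190). It passed as lower with replicates 2 and 3 only (0.00816) and with the replicate number as a block (0.028). It was 49.2 ± 1.99 at day 8 and 69.3 ± 7.49 at day 16, a rise of 0.48 ± 0.13 log2 units (adjusted p = 0.00773), and at day 16 the difference from control was 0.06 (adjusted p = 0.724).

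eIF2B is the exchange factor that recharges eIF2 with GTP and the target through which phosphorylated eIF2 blocks initiation. Eif2b5, its catalytic epsilon subunit, was 24.1, 24.8 and 23.0 FPKM in control, 16.0, 16.9 and 15.8 at day 2, 15.5, 15.6 and 13.4 at day 8 and 17.2, 18.4 and 17.3 at day 16. Every starved library, from 13.3 to 18.4 FPKM, was below every control library. The day 2 change was -0.54 ± 0.08 (adjusted p = 1.52e-06) and the day 16 change from control was -0.43 ± 0.08 (2.92e-05). A small rise from day 8 to day 16 (0.23, adjusted p = 0.0231) was lost without day 8 replicate 3 (0.151), without day 16 replicate 2 (0.0940), with only the groups compared in the fit (0.0865) and after rescaling to the same sum (0.599). Eif2b2 fell most of the 5 at day 2, from 62.9 ± 9.06 to 34.1 ± 3.49 FPKM (-0.86, adjusted p = 1.21e-07). Eif2b3 fell by 0.46 (adjusted p = 0.00133) and Eif2b1 by 0.34 (0.00784), the latter lost without day 2 replicate 1 (0.0714). Eif2b4 did not pass at day 2 (log2 change 0.04). It was lower at day 8 than at day 2 (-0.47, 0.0217) and higher at day 16 than at day 8 (0.50, 0.0176). The day 8 call was lost without day 2 replicate 2, day 8 replicate 1 or day 8 replicate 3 (0.0609, 0.0960 and 0.0919), and the day 16 call without day 8 replicate 1, day 8 replicate 3, day 16 replicate 2 or day 16 replicate 3 (0.0797, 0.0812, 0.0605 and 0.0501).

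The kinases sense different stresses: Eif2ak1 encodes HRI (heme and mitochondrial stress), Eif2ak2 PKR (double-stranded RNA), Eif2ak3 PERK (unfolded proteins in the endoplasmic reticulum) and Eif2ak4 GCN2 (uncharged tRNA). Eif2ak4 was 6.91, 8.53 and 9.58 FPKM in control, 12.4, 14.0 and 14.9 at day 2, 11.6, 12.6 and 13.8 at day 8 and 9.75, 9.79 and 8.90 at day 16. The day 2 libraries were all above control, and the day 16 libraries overlapped control. It rose 1.59-fold by day 2 (log2 change 0.67 ± 0.12, adjusted p = 3.81e-05) and fell with starvation day by 0.43 ± 0.09 over the 14 days (adjusted p = 0.00023). The contrast of day 16 with day 8 alone (-0.38, adjusted p = 0.0194) was lost without day 8 replicate 3 (0.0929) or day 16 replicate 3 (0.0711). At day 16 the difference from control was 0.18 ± 0.12 (adjusted p = 0.208).

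Eif2ak3 was 7.17, 7.16 and 7.17 FPKM in control, 8.58, 10.3 and 11.7 at day 2, 12.4, 10.1 and 10.7 at day 8 and 9.36, 11.3 and 10.1 at day 16. The 3 control libraries were the lowest of all 30. Its changes from control were 0.44 ± 0.10 at day 2 (adjusted p = 0.000322) and 0.46 ± 0.10 at day 16 (0.000183). Eif2ak1 was 23.7, 30.9 and 25.7 FPKM in control, 30.2, 39.6 and 41.1 at day 2, 46.8, 48.1 and 53.1 at day 8 and 44.5, 53.4 and 43.8 at day 16. Control and day 2 libraries overlapped, because day 2 replicate 1 was below control replicate 2, and the day 8 and day 16 libraries were all above control. It rose by 0.45 ± 0.14 at day 2 (adjusted p = 0.00624). The further rise to day 8 (0.42, adjusted p = 0.0184) was lost without day 2 replicate 1 (0.143) or day 8 replicate 3 (0.0776). At day 16 Eif2ak1 was 1.74-fold above control (log2 change 0.80 ± 0.14, adjusted p = 1.27e-05). Eif2ak2 passed only at day 16 against control (0.26, adjusted p = 0.0196), and that call was lost without control replicate 1 (0.104) or day 16 replicate 3 (0.0956).

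**Figure D3:**
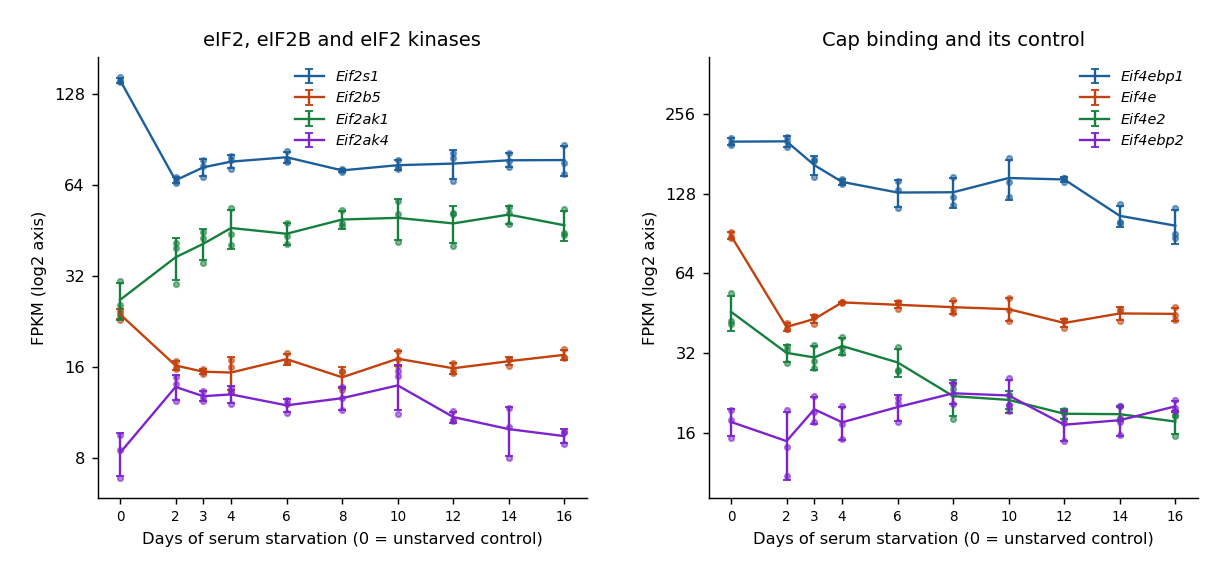
FPKM (log2 axis) against days of serum starvation (0 is unstarved control) for genes of eIF2, eIF2B and 2 eIF2 kinases (left) and for cap-binding genes and their binding proteins (right); points are libraries, lines join means of 3 libraries and bars are SD. Eif2s1 and Eif4e drop by more than 2-fold at day 2 and stay low, Eif4ebp1 is lower at day 8 than at day 2, and Eif4e2 is lower at day 16 than at day 2.

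From a list of 15 genes of the eIF2 phosphatase and the ATF4 response, 8 rose and 3 fell at day 2 (73.3% called, beside 60.7% of all genes), with a median log2 change of 0.41. ATF4 is the transcription factor whose translation increases when eIF2 is phosphorylated. The largest rise was that of Ddit4, an inhibitor of mTORC1, from 2.06 ± 0.530 to 12.2 ± 1.74 FPKM (log2 change 2.12, adjusted p = 1.63e-11). The largest fall was that of Psat1, an enzyme of serine synthesis, from 83.6 ± 2.90 to 39.8 ± 2.18 FPKM (-1.05, adjusted p = 8.39e-07), and it reached 10.5 ± 2.47 FPKM at day 16. From day 2 to day 8 the list had 5 higher and 4 lower genes (60% called, beside 35.8% of all genes). The largest rise was that of Ppp1r15a (GADD34), the subunit that directs the phosphatase to eIF2 alpha, from 18.6 ± 1.29 to 37.3 ± 2.04 FPKM (0.96, adjusted p = 2.57e-08). From day 8 to day 16 there were 4 higher and 5 lower (60%, beside 30.2%).

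The eIF3 genes moved in both directions. By day 2, 6 of the 13 had fallen, 2 had risen and 5 had not passed (61.5% called, beside 60.7% of all genes), with a median log2 change of -0.11. The falls were led by Eif3b, from 121 ± 4.30 to 65.4 ± 4.21 FPKM (log2 change -0.88 ± 0.09, adjusted p = 8.61e-09), and Eif3d, from 135 ± 7.21 to 73.0 ± 3.59 (-0.87 ± 0.10, adjusted p = 3.03e-08). Eif3c went from 189 ± 9.46 to 122 ± 7.80 (-0.63 ± 0.08, adjusted p = 1.47e-07). These 3 genes showed differences of at most 0.08 log2 units from day 2 to day 8 and from day 8 to day 16, none past the threshold. Over the 27 starved libraries the fitted changes of Eif3c and Eif3d with day were 0.15 and 0.19 (adjusted p = 0.0289 and 0.0387), calls lost in 9 and 16 alternatives, among them rescaling to the same sum (0.836 and 0.465). Leaving out 1 library ended that of Eif3c without day 2 replicate 1, day 3 replicate 1 or day 16 replicate 2 (0.0514, 0.0589 and 0.0653), and that of Eif3d without any of 10 libraries of days 3, 12, 14 and 16 (0.0501 to 0.0881). At day 16 the 3 genes were lower than control by 0.87, 0.83 and 0.53 log2 units for Eif3b, Eif3d and Eif3c (adjusted p = 7.66e-09, 5.09e-08 and 1.51e-06). Eif3j, a loosely bound subunit, fell by 0.37 at day 2 (adjusted p = 0.0118), a call lost without control replicate 3 (0.0741) or day 2 replicate 1 (0.0587), and was 0.52 log2 units below control at day 16 (0.000576). Eif3b holds the core that contacts the messenger channel, Eif3d can itself bind the cap, and Eif3c belongs to the octamer of PCI and MPN domain subunits.

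Eif3f and Eif3h, the MPN domain subunits of that octamer, were the 2 that rose. Eif3f was 258, 217 and 209.7 FPKM in control, 395, 367 and 365 at day 2, 273, 272 and 262 at day 8 and 375, 428 and 389 at day 16. The day 2 and day 16 libraries overlapped each other and were all above the control and day 8 libraries. Eif3f rose 1.65-fold by day 2 (log2 change 0.72, adjusted p = 8.54e-08), fell by 0.48 to day 8 (8.21e-05) and rose by 0.56 to day 16 (2.2e-05). Eif3h was 210.1, 227 and 231 FPKM in control, 281, 312 and 316 at day 2, 215, 243 and 211 at day 8 and 319.9, 416 and 344 at day 16. Its day 8 libraries overlapped control, and its day 2 and day 16 libraries were above both. The 3 changes were 0.44, -0.44 and 0.68 (adjusted p = 0.00151, 0.00302 and 4.73e-05). At days 3, 4, 10 and 12 Eif3f averaged 302, 274, 331 and 368 FPKM and Eif3h 232, 205, 292 and 320. Both means were already lower at day 3 than at day 2, and higher at day 10 than at day 8. Contrasts with these days were not tested.

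Eif3m and Eif3e, PCI domain subunits of the octamer, fell and rose again within starvation without a passing change at day 2. Eif3m was 255, 225 and 265 FPKM in control, 256, 248 and 271 at day 2, 171, 184 and 187 at day 8 and 256, 289 and 264 at day 16. Day 8 was the only one of these 4 groups that lay apart, below the rest. The change was 0.06 at day 2 (adjusted p = 0.596), -0.51 to day 8 (5.93e-05) and 0.57 to day 16 (2.61e-05). Eif3e was 176, 173 and 179 FPKM in control, 174, 179 and 184 at day 2, 150.1, 134 and 139 at day 8 and 199, 225 and 218 at day 16. Day 8 was below and day 16 above all control and day 2 libraries. Its changes were 0.03 (adjusted p = 0.797), -0.34 (0.000918) and 0.60 (1.55e-06). At days 3, 4, 10 and 12 Eif3m averaged 194, 178, 210 and 240 FPKM and Eif3e 152, 135, 163 and 181. The falls were thus in place before day 8, and both means were higher at day 10 than at day 8.

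In all, 7 of the 13 eIF3 genes fell from day 2 to day 8 and 7 rose from day 8 to day 16, with median log2 changes of -0.27 and 0.35, beside 18.4% of all genes that fell and 15.8% that rose. After rescaling to the same sum 5 fell and 4 rose. The day 8 libraries enter both comparisons. The other 3 that did so in both were Eif3g, Eif3i and Eif3l, by -0.33, -0.27 and -0.31 and then by 0.35, 0.36 and 0.29. The day 8 falls were lost without day 2 replicate 1 for Eif3g (0.0569) and Eif3i (0.180), without day 8 replicate 1 for Eif3i (0.0527) and Eif3l (0.0752), and without day 8 replicate 3 for Eif3i (0.122). The day 16 rises were lost after rescaling to the same sum (0.198, 0.150 and 0.152), and that of Eif3l also without day 8 replicate 1 (0.110) or day 16 replicate 2 (0.127). Over all 27 starved libraries 10 of the 13 rose with day and 1 fell, beside 26.6% higher and 28.9% lower over all genes. After rescaling to the same sum 4 rose and 3 fell, and in the fit to the means of the 9 time points 2 rose and 0 fell. Leaving out day 3, day 4, day 14 or day 16 as a time point left 6, 6, 6 and 5 that rose. The rise of Eif3h was 0.58 ± 0.13 log2 units over the 14 days (adjusted p = 0.000525). These rises are slopes of a straight line and not differences between day 2 and day 16. Eif3l and Eif3g averaged 136 and 112 FPKM at day 2 and 134 and 113 at day 16. Eif3f and Eif3m went from 376 and 258 to 397 and 270 FPKM, and Eif3h and Eif3e from 303 and 179 to 360 and 214.

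Eif3a and Eif3k gave noisier values. Eif3a, the largest subunit and the backbone of the complex, was 86.0, 119 and 125 FPKM in control, 86.2, 107 and 111 at day 2, 106, 112 and 119 at day 8 and 80.2, 90.3 and 91.3 at day 16. Replicate 1 was the lowest library in each of these groups. Its fall from day 8 to day 16 (-0.36, adjusted p = 0.0283) was lost without day 8 replicate 2 (0.0613), day 8 replicate 3 (0.103) or day 16 replicate 1 (0.113). Eif3k was 132, 65.7 and 79.2 FPKM in control, 132, 69.0 and 69.9 at day 2, 92.0, 55.5 and 70.6 at day 8 and 136, 102 and 104 at day 16. Here replicate 1 was the highest library in each of these groups, and the control and day 2 values overlapped. The fitted rise with day was 0.71 ± 0.18 over the 14 days (adjusted p = 0.00183). The difference between day 8 and day 16 was 0.66 (adjusted p = 0.0730) and that between control and day 16 was 0.35 (0.266). Both passed with replicates 2 and 3 only (0.000543 and 0.00204). The former also passed without day 8 replicate 1 (0.0439) and with only the groups compared in the fit (0.0271).

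**Figure D4:**
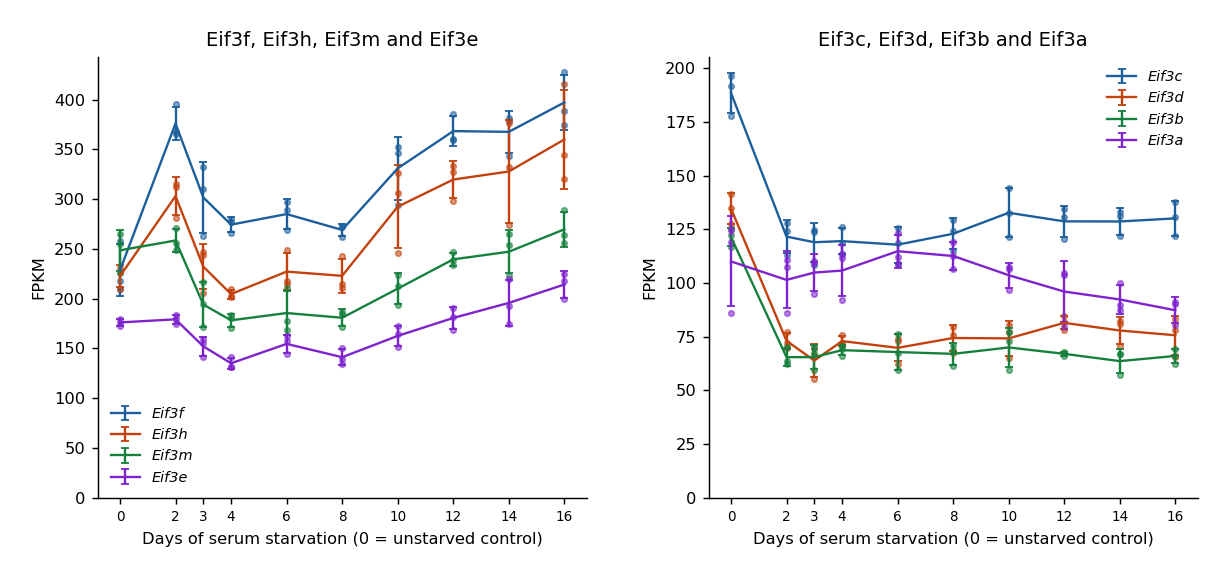
FPKM of 8 eIF3 subunit genes against days of serum starvation (0 is unstarved control); points are libraries, lines join means of 3 libraries and bars are SD. In the left panel Eif3f, Eif3h, Eif3m and Eif3e are lower at day 8 than at day 2 and higher again at day 16; in the right panel Eif3b, Eif3c and Eif3d are lower at day 2 than in control and also at day 16.

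Other genes of the translation machinery are given from lists. Among 69 cytosolic ribosomal protein genes tested, 46 fell from day 2 to day 8 with a median log2 change of -0.49 over the list, and 60 rose from day 8 to day 16 with a median of 0.67. Over all genes 18.4% fell in the first of these comparisons and 15.8% rose in the other. At day 2 against control 15 of them had risen and 4 had fallen (27.5% called, beside 60.7% of all genes), with a median of 0.14. That list was drawn up with earlier results of these data known. Of 13 genes listed as elongation and termination factors, 8 fell and 4 rose at day 2 (median log2 change -0.34). From day 2 to day 8, 5 fell and 3 rose, and from day 8 to day 16, 4 rose and 1 fell. The shares called were 92.3%, 61.5% and 38.5%, beside 60.7%, 35.8% and 30.2% of all genes. Eef1a1, which carries aminoacyl-tRNA to the ribosome, was 7026 ± 147 FPKM in control, 9614 ± 627 at day 2, 5774 ± 147 at day 8 and 8380 ± 604 at day 16, and its fall to day 8 was the largest of the list (-0.73, adjusted p = 8.29e-06). Eef1g, of the exchange factor for Eef1a1, was 1407 ± 15.7, 965 ± 16.4 and 1416 ± 57.1 FPKM at days 2, 8 and 16, with the largest rise of the list to day 16 (0.55, adjusted p = 1.29e-06). The largest rise of the list at day 2 was that of the gene for eEF2 kinase, which inhibits elongation (Eef2k, 8.05 ± 0.476 to 25.1 ± 1.14 FPKM, log2 change 1.53, adjusted p = 7.17e-11 in limma). The largest fall was that of Eef1e1, which was listed by its symbol (-0.86, adjusted p = 6.2e-07).

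Of the 10 genes of the cap complex and its helicases tested, 6 fell and 3 rose at day 2 (60% and 30%, beside 30.7% and 30% of all genes), with a median log2 change of -0.36. The list for this group had 12 symbols, and Eif4g1, a gene of the eIF4G scaffold, was not among the genes found. The 2 cytoplasmic eIF4A helicases moved in opposite directions. Eif4a1 was 729, 660.3 and 713 FPKM in control, 310.3, 315 and 312 at day 2, 302, 316 and 302 at day 8 and 265, 281 and 280.3 at day 16. Starved libraries ranged from 258 to 361 FPKM and were all below control. The fall at day 2 was 2.24-fold (log2 change -1.16 ± 0.07, adjusted p = 4.48e-14), and by day 16 it was 2.54-fold (-1.34, adjusted p = 1.26e-15). Eif4a2, its paralog, was 71.5, 84.9 and 90.1 FPKM in control, 131, 142 and 148 at day 2, 192, 213 and 216 at day 8 and 242, 314 and 287 at day 16. These 4 groups did not overlap. It rose 1.71-fold by day 2 (0.77 ± 0.12, adjusted p = 4.23e-06) and 1.47-fold more by day 8 (0.56, adjusted p = 0.000566). The step from day 8 to day 16 (0.43, adjusted p = 0.00721) was lost without day 16 replicate 2 (0.0552). Over the 14 days its fitted rise was 0.98 ± 0.09 log2 units (adjusted p = 9.37e-10). At day 16 it was 3.39-fold above control (1.76, adjusted p = 1.13e-12).

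As a ratio of FPKM within a library, Eif4a2 to Eif4a1 was 0.118 ± 0.0170 (SD, n = 3) in control, 0.450 ± 0.0259 at day 2, 0.676 ± 0.0402 at day 8 and 1.02 ± 0.103 at day 16. The ratio shows unequal change of the pair and was not tested. Eif4a3, the nuclear helicase of the exon junction complex that marks spliced messengers, fell by 0.72 log2 units at day 2 (adjusted p = 6.15e-08) and was higher at day 8 than at day 2 (0.27, 0.0156). The day 8 call was lost without day 2 replicate 1 (0.0601) or day 8 replicate 3 (0.0536). Among 6 of its partners tested, 3 fell at day 2 (50%, beside 30.7% of all genes lower) and 0 rose, with a median log2 change of -0.50. The falls were led by Magohb (-1.25, adjusted p = 0.00169). Of the helicase cofactor genes, Eif4h fell from 273 ± 5.73 to 167 ± 7.23 FPKM (-0.71, adjusted p = 5.16e-08), while Eif4b rose.

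Eif4b was 79.3, 88.7 and 88.9 FPKM in control, 121, 122 and 135 at day 2, 88.3, 100.4 and 96.4 at day 8 and 138, 156 and 142 at day 16. Its values at days 2 and 16 were above every control and day 8 library. The changes were 0.55 at day 2 (adjusted p = 2.56e-06), -0.40 to day 8 (0.000339) and 0.61 to day 16 (3.42e-06), the same order of rise, fall and rise as in Eif3f and Eif3h. At days 3, 4, 10 and 12 Eif4b averaged 98.8, 87.1, 114 and 114 FPKM. Eif4g3, one of the scaffold proteins of the cap complex, was 11.2, 13.9 and 13.4 FPKM in control, 14.8, 18.8 and 19.5 at day 2, 21.5, 23.7 and 27.2 at day 8 and 17.6, 17.6 and 18.4 at day 16. All starved libraries of these groups were above control, with day 8 the highest. The rise at day 2 was 0.43 ± 0.12 (adjusted p = 0.00411). The further rise to day 8 (0.43, 0.00731) was lost without day 2 replicate 1 (0.0681) or day 8 replicate 3 (0.0552), and the fall to day 16 (-0.41, 0.0133) without day 8 replicate 3 (0.0891). Eif4g2 (DAP5), a scaffold that lacks the eIF4E site, was lower at day 2 than in control (-0.23, adjusted p = 0.0158), a call lost without control replicate 2, control replicate 3 or day 2 replicate 1 (0.0550, 0.0792 and 0.0997). It went from 399.8 ± 29.0 at day 2 to 536 ± 20.2 FPKM at day 8 (0.42, adjusted p = 0.000152).

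**Figure D5:**
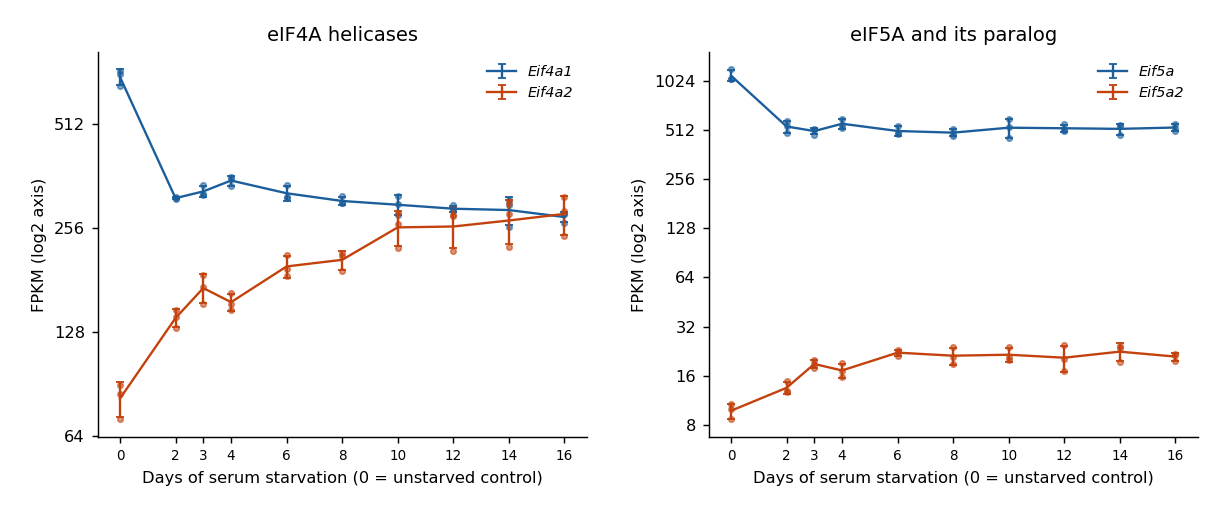
FPKM (log2 axis) of the paralog pairs Eif4a1 and Eif4a2 (left) and Eif5a and Eif5a2 (right) against days of serum starvation (0 is unstarved control); points are libraries, lines join means of 3 libraries and bars are SD. Eif4a1 and Eif5a drop at day 2 while Eif4a2 and Eif5a2 rise, and the Eif4a2 and Eif4a1 lines meet by day 16.

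Of the 3 cap-binding genes, Eif4e and Eif4e2 fell. Eif4e, the cap-binding protein, was 87.7, 87.0 and 92.1 FPKM in control, 41.6, 39.5 and 39.4 at day 2, 50.9, 46.8 and 45.5 at day 8 and 42.9, 44.4 and 47.8 at day 16. No starved library exceeded 51.5 FPKM. The fall at day 2 was 2.18-fold (log2 change -1.13 ± 0.07, adjusted p = 1.32e-13), followed by a small rise to day 8 (0.24, adjusted p = 0.00562). Eif4e2 encodes 4EHP, which binds the cap but not eIF4G and acts as a repressor. It was 53.9, 41.4 and 42.3 FPKM in control, 32.9, 29.4 and 33.9 at day 2, 24.4, 18.1 and 23.5 at day 8 and 18.7, 18.6 and 15.6 at day 16. Control, day 2 and day 8 did not overlap, while day 8 and day 16 did. Its falls were 0.50 log2 units at day 2 (adjusted p = 0.000606) and 0.53 to day 8 (0.000598), and the change to day 16 did not pass (-0.30, 0.0523). At day 16 it was 2.50-fold below control (-1.32, adjusted p = 1.53e-10). Eif4e3, another cap-binding relative, was 6.62 ± 0.452 FPKM in control and 6.63 ± 1.18 at day 2. It was higher at day 8 (9.25 ± 0.838 FPKM, log2 change 0.43, adjusted p = 0.0317), a call lost without day 2 replicate 1, day 8 replicate 2 or day 8 replicate 3 (0.188, 0.101 and 0.0850).

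The 4E-binding protein genes were not called at day 2, and Eif4ebp1 was lower later. Of the 4 genes of this group tested at day 2 in limma, 0 passed, beside 60.7% of all genes, and 0 had an unadjusted p under 0.05. Eif4ebp1 (4E-BP1), the main mTORC1-controlled inhibitor of eIF4E, was 208, 196 and 199.7 FPKM in control and 210.3, 203 and 192 at day 2, with the groups overlapping (0.00, adjusted p = 0.984). It was then 125, 148 and 116 at day 8 and 87.3, 113 and 90.2 at day 16. Day 8 and day 16 were below both earlier groups and did not overlap each other. Eif4ebp1 fell 1.56-fold from day 2 to day 8 (-0.64 ± 0.11, adjusted p = 5.33e-05). The fall to day 16 (-0.42, adjusted p = 0.00596) was lost without day 8 replicate 2 (0.0522). Across the 14 days the fitted fall was 0.73 ± 0.12 (adjusted p = 8.52e-06), and at day 16 it was 2.08-fold below control (adjusted p = 6.7e-09).

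Set against Eif4e in the same libraries, the ratio of Eif4ebp1 to Eif4e was 2.27 ± 0.105 (SD, n = 3) in control, 5.03 ± 0.134 at day 2, 2.85 ± 0.0652 at day 4, 2.72 ± 0.386 at day 8, 3.49 ± 0.179 at day 12 and 2.16 ± 0.350 at day 16. The ratio was highest at day 2 among all 10 groups and did not fall steadily afterwards. Its day 16 and control values overlapped, and it was not tested. Eif4ebp2 was 15.3, 19.5 and 17.9 FPKM in control, 11, 14.1 and 19.5 at day 2, 24.7, 22.4 and 20.6 at day 8 and 21.3, 19.4 and 19.8 at day 16. Its day 2 libraries were the most spread. The rise to day 8 (0.60 ± 0.15, adjusted p = 0.00285) was lost with replicates 2 and 3 only (0.105). Eif4ebp3 passed only at day 16 against control (-0.55, adjusted p = 0.0367), a call lost in 8 alternatives. Eif4enif1, the transporter that takes eIF4E into the nucleus, passed in no comparison of the main fits. At day 2 it passed as lower with the replicate number as a block (-0.17, adjusted p = 0.0374).

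From a list of 13 genes of mTORC1 and of the MNK kinases that phosphorylate eIF4E, 3 rose and 3 fell at day 2, with a median log2 change of -0.13. The share called, 46.2%, was below the 60.7% of all genes. Both MNK genes stood at the ends of that list. Mknk1 rose from 4.45 ± 1.06 to 9.15 ± 1.26 FPKM (log2 change 0.91, adjusted p = 7.3e-06), and Mknk2 fell from 189 ± 8.09 to 102 ± 5.93 FPKM (-0.88, adjusted p = 4.63e-10). They were also the largest rise and fall from day 2 to day 8 (0.83 and -0.64, adjusted p = 5.42e-05 and 3.97e-07), where 3 of the 13 rose and 1 fell (30.8% called, beside 35.8% of all genes).

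Eif5a and Eif6, which act at elongation and at the joining of subunits despite their names, were among the genes that fell most. Eif5a was the most abundant initiation factor gene per transcript length in control, at 1209, 1055 and 1062 FPKM. It was 587, 542 and 493 at day 2, 489, 522 and 474 at day 8 and 507, 560.2 and 531 at day 16. All 27 starved libraries, from 458 to 604 FPKM, lay below control. The fall at day 2 was 2.05-fold (log2 change -1.04 ± 0.09, adjusted p = 3.01e-10) and 2.08-fold at day 16 (-1.05, adjusted p = 1.35e-10), and no comparison among the starved groups passed. Its paralog Eif5a2 was 8.63, 9.92 and 10.7 FPKM in control, 12.9, 12.7 and 14.8 at day 2, 23.9, 20.9 and 18.8 at day 8 and 19.6, 21.8 and 21.4 at day 16. Control, day 2 and day 8 did not overlap. Eif5a2 rose by 0.43 ± 0.12 log2 units at day 2 (adjusted p = 0.00257) and by 0.61 ± 0.12 to day 8 (0.000152), and was 2.05-fold above control at day 16 (adjusted p = 2.1e-08). Its level stayed far below that of Eif5a: the ratio of Eif5a2 to Eif5a was 0.00887 ± 0.00153 in control and 0.0393 ± 0.000887 at day 16.

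Eif6, which keeps free large subunits from joining small ones, was 191, 185 and 203 FPKM in control, 101, 91.8 and 92.4 at day 2, 76.6, 82.4 and 89.2 at day 8 and 72.0, 96.1 and 78.8 at day 16. No starved library exceeded 104 FPKM. The fall was 2.02-fold at day 2 (log2 change -1.01 ± 0.11, adjusted p = 1.06e-08) and 2.34-fold at day 16 (-1.23, adjusted p = 2.05e-10). Among 14 accessory genes of initiation without an Eif symbol, 9 fell and 2 rose at day 2 (64.3% and 14.3%, beside 30.7% and 30% of all genes), with a median log2 change of -0.35. The largest fall was that of Dhps, whose enzyme begins the hypusine modification that eIF5A needs, from 78.1 ± 5.04 to 43.8 ± 2.94 FPKM (-0.82, adjusted p = 4.42e-09). The largest rise was that of Pdcd4, an inhibitor of eIF4A, from 11 ± 2.35 to 27.2 ± 3.72 FPKM (1.25, adjusted p = 1.48e-09). At day 16 Pdcd4 was still 1.97-fold above control (adjusted p = 7.75e-08).

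Promoter sequence was read for 47 of the 52 genes in the RefSeq tables (build GRCr8), as the 300 bases from 250 before to 50 after the annotated start. The motif CACGTG, the same on both strands and known as a site of the MYC and TFE families, lay in 8 of the 47 (17%). It lay in 7.08% of all 27457 genes with a promoter of that length and in 10.1% of the 6973 such genes tested here. A gene with several promoters counted once, as a match if any of them held the motif. The 8 genes were Eif1b, Eif3a, Eif3b, Eif3f, Eif4e, Eif4h, Eif5a and Eif5a2. At day 2, Eif1b, Eif3b, Eif4e, Eif4h and Eif5a had fallen, Eif3f and Eif5a2 had risen, and Eif3a did not pass. The windows of 7 of them are shown, 30 bases each, 5′ to 3′ on the strand of the gene, with the motif in capitals, because they include both members of the Eif5a pair and both directions of change.
Eif4e, chr2:229740504-229740533, plus strand: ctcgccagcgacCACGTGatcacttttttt
Eif4e, chr2:229740661-229740690, plus strand: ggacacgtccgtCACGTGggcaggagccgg
Eif5a, chr10:55143410-55143439, minus strand: aaggggcggggtCACGTGtgtgcgtcattg
Eif5a2, chr2:113657626-113657655, plus strand: actaatccgcagCACGTGgggttgccaggg
Eif5a2, chr2:113657651-113657680, plus strand: cagggcgagcttCACGTGactgggcgggac
Eif4h, chr12:27719512-27719541, plus strand: tggccgccccacCACGTGggccgcagagcg
Eif3b, chr12:19334808-19334837, minus strand: actcgctgcacgCACGTGgctccgcgctag
Eif3f, chr1:172368991-172369020, plus strand: caagatatgggtCACGTGgtacaaatttag
Eif1b, chr8:129081092-129081121, plus strand: ggaacgtgtggtCACGTGgcggcggcgcgc

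The motif begins 237 and 80 bases before the start of Eif4e and 206 bases before that of Eif5a, and 196 and 171 bases before that of Eif5a2. The ETS family motif CCGGAAGT, searched on both strands, lay in 11 of the 47 genes (23.4%), in 4.2% of all genes with a promoter and in 10% of those tested. The 11 were Eif1a, Eif1b, Eif2a, Eif2ak1, Eif2b1, Eif2b2, Eif2d, Eif3d, Eif3i, Eif4e2 and Eif5a2. The amino acid response motif TGATGNAA, a site of ATF4 dimers, lay in 2 of the 47 (4.26%), Eif2s2 and Eif3g, in 4.16% of all genes with a promoter and in 1.82% of those tested. A match describes these letters only, and no binding was measured. Promoter windows of Eif3e, Eif3h, Eif4b, Eif4e3 and Eif4ebp1 were not used here.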

How the data were processed

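Gene expression was measured by RNA sequencing in 30 libraries of REF cells, 3 in each of 10 groups. The FPKM values, 1 column per library, were deposited by the authors. TopHat2 2.1.1, Cufflinks and Cuffnorm 2.2.1 with rat build rn6 are named in the submitters' processing notes, without the part each played, and the annotation, filters and scaling across libraries are not given in the sources used here. RNA was required to reach a set quality score, per the labels' protocols. The file holds no counts, so depth is unknown and no counting error can be given. Every value column matched 1 library by its name.

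Values were analysed as log2(FPKM + 1), which understates the fold changes of low genes. Genes with a mean of at least 1 FPKM over all libraries were kept (8940 of 17353). Group contrasts came from 1 limma 3.58.1 fit (R 4.3.3) of the 10 group means with moderated variances and a mean-variance trend. The change with day came from a second fit over the 27 starved libraries and is given over 14 days. P-values were two-sided and adjusted by the Benjamini-Hochberg method over all genes kept, with a threshold of 0.05, and folds are on the log2(FPKM + 1) scale. The scripts were tested on simulated data. SE is that of the fit, and SD is over 3 libraries.

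Values in every library of control, day 2, day 8 and day 16 are given for some members. These were the 3 largest rises and falls past the threshold in each comparison, among genes averaging 5 FPKM or more. A fixed set of factors was added. Eif4g1 belonged to that set but was not among the genes found. Other members appear by count, range or change. From lists of related genes, the largest rise and fall may be named. Eef1a1 and Eef1g at all times, the ribosomal protein list, the promoter motifs and the ratios were chosen after values were seen. The members and lists were chosen with earlier results of these data known. The labels call the samples biological replicates but do not say what a replicate number shares. The alternatives were another pseudocount, other filters, 3 other scalings, a fit of only the groups compared, no variance trend, the replicate number as a block, replicates 2 and 3 only, other scales of time, and leaving out each library or day.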

Additional observations from a re-analysis of the deposited data

How the results depend on the processing

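Of the calls on single initiation factor genes, 28 of 36 at day 2 against control held under every alternative run, 31 of 38 at day 16 against control, 12 of 22 at day 8 against day 2, 7 of 18 at day 16 against day 8 and 11 of 26 for the change with day, and 0 reversed. Rescaling each library to the same FPKM sum changed the counts of initiation factor genes from 19 to 9 higher and from 7 to 11 lower with day, and from 12 to 7 higher and from 6 to 12 lower at day 16 against day 8. Over all genes it gave 1573 higher and 3256 lower with day, and 731 higher and 2458 lower at day 16 against day 8. That scaling moves the median of all genes, as given above. Fitting the means of the 9 time points left 7 initiation factor genes higher with day and 5 lower, with fewer values in the fit. Over all genes it left 1664 higher, beside 2377 in the main fit, and 1723 lower, beside 2587. Leaving out 1 library gave 7 to 11 higher at day 8 against day 2 (7 without day 2 replicate 1 or day 8 replicate 3) and 3 to 6 lower at day 16 against day 8 (3 without day 8 replicate 3). It gave 21 to 28 lower at day 2 against control and 8 to 13 higher at day 16 against day 8.

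Libraries of different groups with replicate number 1 deviated together, while those numbered 2 or 3 did not all do so. The correlation of their deviations was 0.0773 to 0.727 for replicate 1, -0.206 to 0.323 for replicate 2 and -0.111 to 0.446 for replicate 3, with 10, 4 and 9 of 10 libraries correlating best with their own number, a hint from the data and not from the design. With the replicate block, 9 initiation factor genes were higher and 29 lower at day 2, 12 and 15 at day 8 against day 2, 16 and 9 at day 16 against day 8, 13 and 28 at day 16 against control, and 21 and 8 with day. Eif3k was among those that passed with the block and not without it, at day 16 against day 8 (adjusted p = 0.00176 in limma) and against control (0.0479). So were Eif2s3x and Eif4enif1, lower at day 2 (0.028 and 0.0374), and Eif5b, higher at day 16 against control (0.000786). Depth is unknown, and 3 libraries a group limit the precision. Levels of the proteins, their phosphorylation and translation itself were not measured.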
